A study of Homo sapiens with 6 samples.

Results

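The genes described here carry out MHC class I peptide processing and loading, in A375 cells given panobinostat or vehicle. They were the 10 lines of the count table with the symbols TAP1, TAP2, TAPBP, PSMB8, PSMB9, PSMB10, ERAP1, ERAP2, NLRC5 and B2M, of 25343 gene lines in all. A375 is an established human melanoma cell line, and panobinostat is an inhibitor of histone deacetylases, enzymes that take acetyl groups off histones and other proteins. Treated cells had 50 nM panobinostat for 24 h and the control cells an equal volume of PBS (vehicle, 0 nM) for the same time, both from the parental line with no genetic change named. RNA-seq was done on 3 libraries per group.

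MHC class I molecules show short peptides from inside the cell to CD8+ T cells. The proteasome cuts the peptides, with 3 interferon-inducible subunits (PSMB8, PSMB9 and PSMB10) that can replace the constitutive ones, the TAP1-TAP2 pump carries them into the endoplasmic reticulum (ER), ERAP1 and ERAP2 trim them there, and tapasin (TAPBP) holds an empty heavy chain and its light chain B2M at the pump until a peptide is bound. NLRC5 switches on many of these genes together, and in many tumours low levels of the pathway accompany escape from T cells.

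With panobinostat 9 of the 10 genes were called lower, and NLRC5 alone did not pass. The test was edgeR's quasi-likelihood test, with a Benjamini-Hochberg adjusted p under 0.05 over all 15499 genes tested. B2M was only 1.10-fold lower, and its call was lost with upper quartile scaling and with a filter of 5 CPM. The background was high, since 41.0% of all tested genes were called lower and 41.8% higher. The immunoproteasome subunits PSMB8 and PSMB10 fell most, 4.21-fold and 4.53-fold, followed by ERAP2, TAPBP and ERAP1 at 2.85-fold to 3.11-fold. These 5 genes were at least 2-fold lower, as were 11.7% of all tested genes, and the same 5 passed a test against a 2-fold change, as did 9.28% of all. The median log2 fold change was -1.23 over the 10 genes and 0.0085 over all tested genes. For 9 of the 10 genes, all lower, the panobinostat and vehicle ranges were apart, where the share over all tested genes was 83.4% in either direction and 41.5% lower.

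Totals were 32293283 to 36201208 counts in panobinostat libraries and 34738362 to 38944399 in vehicle libraries, and all 10 genes passed the filter on low counts. Nothing in the labels says that the libraries came from separate cultures, so p-values reflect only how far these libraries vary, possibly for technical reasons. The 6 melanoma markers were detected in every library and fell in 6 of 6 cases, SOX10 to 368 ± 21.8 CPM with panobinostat, against 813 ± 56.3 CPM in vehicle (SD, n = 3 each), and their summed level was 965 to 1048 CPM with panobinostat and 3105 to 3420 CPM in vehicle. The 8 leukocyte markers summed to 0.635 to 0.902 CPM with panobinostat and 0.232 to 0.285 CPM in vehicle, with MS4A1 at 0 in all libraries and PTPRC at 0 in vehicle, and 1 of 1 tested rose, CD14, at 0.574 CPM with panobinostat and 0.158 CPM in vehicle (edgeR adjusted p = 0.000125). The 7 fibroblast and endothelial markers summed to 100.9 to 104.3 CPM with panobinostat and 22.1 to 24.2 CPM in vehicle, COL1A1 the largest part of them with panobinostat (56.1 CPM, against 1.001 CPM in vehicle), and 6 of 6 tested rose. The 4 epithelial markers summed to 1.42 to 1.88 CPM with panobinostat and 3.07 to 3.67 CPM in vehicle, with 1 of 2 tested higher and 1 lower. Beside these counts of markers stand the 41.0% lower and 41.8% higher of all tested genes. The part of these marker shifts in the results below was not tested, and in bulk RNA fewer cells of a kind and less RNA per cell cannot be told apart.

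The start-site sequences are shown first because 8 of the genes carry the same short interferon motif beside a start. Windows from 250 bases before to 50 bases after each RefSeq transcript start (GRCh38.p14) were given for 9 of the 10 genes, all but NLRC5. They were searched on both strands for the core of the interferon-stimulated response element, GAAANNGAAA, which reads TTTCNNTTTC on the other strand and is bound by interferon regulatory factors. At least 1 window held it for 8 of these 9 genes, against 4.38% of the 27305 genes with a window, and 8 of the 13 windows held it, against 3.57% of 35116 windows. Capitals mark the motif in the 30 bases to either side that follow, cut at base 30 after the start, on the strand of the gene.

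TAP1 (chr6:32853793-32853868, minus strand): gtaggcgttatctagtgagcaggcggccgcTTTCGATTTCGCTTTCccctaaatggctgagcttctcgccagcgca
TAP2 (chr6:32838758-32838827, minus strand): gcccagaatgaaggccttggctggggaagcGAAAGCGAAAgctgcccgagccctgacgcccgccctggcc
TAPBP (chr6:33314053-33314128, minus strand): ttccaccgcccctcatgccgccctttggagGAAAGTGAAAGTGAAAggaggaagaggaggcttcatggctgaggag
PSMB8 (chr6:32844018-32844081, minus strand): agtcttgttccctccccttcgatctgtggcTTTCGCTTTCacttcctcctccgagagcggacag
PSMB10 (chr16:67936832-67936901, minus strand): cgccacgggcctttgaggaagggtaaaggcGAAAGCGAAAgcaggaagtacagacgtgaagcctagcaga
ERAP1 (chr5:96807916-96807973, minus strand): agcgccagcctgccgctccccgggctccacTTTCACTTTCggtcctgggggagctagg
ERAP2 (chr5:96876440-96876509, plus strand): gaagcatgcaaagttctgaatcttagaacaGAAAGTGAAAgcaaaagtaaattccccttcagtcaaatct
B2M (chr15:44711343-44711418, plus strand): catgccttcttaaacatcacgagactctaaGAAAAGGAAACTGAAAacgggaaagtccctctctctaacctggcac

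TAP1, TAPBP and B2M each held 2 overlapping matches. The match lay within 30 bases before the start or across or just after it in TAPBP, PSMB8, PSMB10, ERAP1 and ERAP2, and farther upstream in TAP2 (from base -58), TAP1 (from base -134) and B2M (from base -144). PSMB8, ERAP1, ERAP2 and TAP1 have 2 annotated starts each, and in each case 1 of the 2 windows held the motif. No match stood in the PSMB9 window. TAP1 and PSMB9 are transcribed away from each other with 487 bases between their starts, and the TAP1 matches lay 354 to 369 bases upstream of the PSMB9 start, outside its window.

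Other motifs tied to control of class I genes were less common in these windows. The kappaB motif GGGANTTTCC, bound by NF-kB, stood in TAP1 and B2M, which is 2 of 9 genes against 0.678% of all genes with a window. The gamma-activated site TTCNNNGAA stood in 2 of 9 genes (TAP1 and PSMB8) against 9.38%. The half-site TGACG, part of the box that CREB and ATF factors bind, stood in 4 of 9 against 28.4%, and the CCAAT box, bound by NFY, in 4 of 9 against 39.7%. No match of 1 motif overlapped a match of another. A match is a description of the letters only. Among the 451 tested genes with GAAANNGAAA in a window, the 8 printed above included, 47.5% were lower and 39.5% higher with panobinostat. Their median log2 fold change was -0.090. Among all 11103 tested genes with a window, which include the 451, 42.7% were lower and 41.1% higher, with a median of -0.017.

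**Figure D1:**
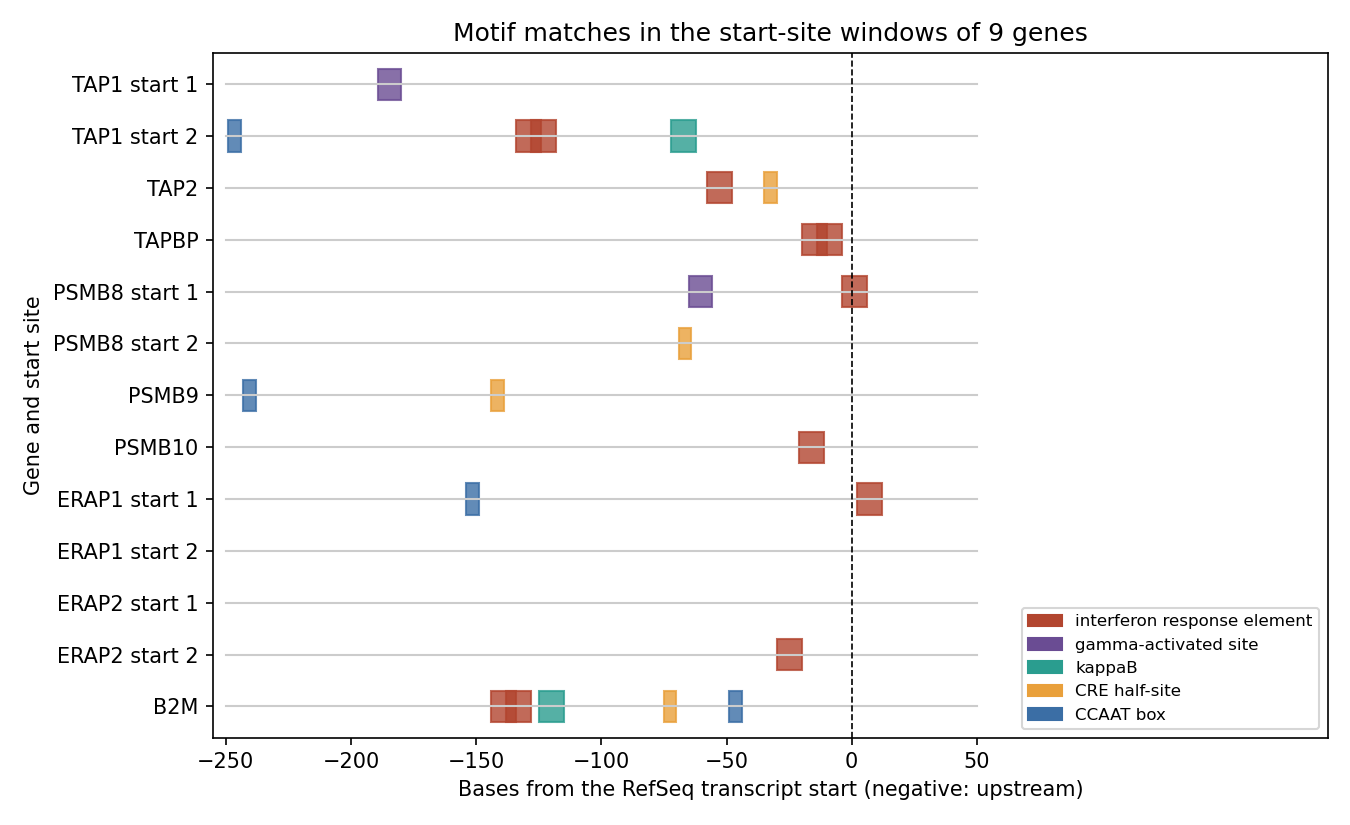
Motif matches in the start-site windows of 9 genes, drawn as coloured blocks on a line per RefSeq start, with distance from the start in bases on the horizontal axis and starts of 1 gene numbered by genome position. Of the 13 windows, 8 hold the interferon response element, while the PSMB9 window and 1 window each of ERAP1, ERAP2, PSMB8 and TAP1 hold none.

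The catalytic subunits of the immunoproteasome fell in 3 of 3 cases, by very different amounts. PSMB8 (LMP7, beta-5i, with chymotrypsin-like activity; chr6:32840717-32844703 in GENCODE 29, build GRCh38) had 7.32, 7.49 and 7.92 CPM in panobinostat replicates 1, 2 and 3, against 33.1, 31.2 and 31.4 CPM in vehicle replicates 1, 2 and 3. Every panobinostat library lay far below every vehicle library, and the log2 fold change was -2.07 ± 0.07 (SE; edgeR adjusted p = 1.28e-14). PSMB10 (MECL-1, beta-2i, with trypsin-like activity; chr16:67934502-67937087) had 2.49, 2.16 and 2.63 CPM in panobinostat libraries, against 13.1, 10.1 and 9.74 CPM in vehicle libraries. The vehicle libraries of PSMB10 were more spread, with replicate 1 the highest, but the groups did not overlap, and the log2 fold change was -2.18 ± 0.13 (edgeR adjusted p = 1.92e-10). PSMB9 (LMP2, beta-1i; chr6:32844136-32859585) had 4.92, 5.85 and 5.82 CPM with panobinostat, against 11.2, 10.1 and 10.5 CPM in vehicle. Its ranges did not overlap either, and its log2 fold change of -0.94 ± 0.09 (edgeR adjusted p = 3.19e-08) was the smallest of the 3.

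The 3 constitutive subunits that these replace were measured beside them. PSMB5, the constitutive partner of PSMB8, fell 1.87-fold, to 50.5 ± 3.15 CPM with panobinostat, against 94.4 ± 5.44 CPM in vehicle (SD, n = 3 each; edgeR adjusted p = 6.74e-11). PSMB6, replaced by PSMB9, fell 1.67-fold, to 46.6 ± 2.0 CPM with panobinostat, against 77.8 ± 2.91 CPM in vehicle (edgeR adjusted p = 2.47e-10). PSMB7, replaced by PSMB10, stood at 224 ± 7.12 CPM with panobinostat and 238 ± 3.29 CPM in vehicle, a log2 fold change of -0.08 ± 0.04 (edgeR adjusted p = 0.0443), a fall whose call was lost under 9 of 15 alternatives and whose sign turned in 2 of them, with a filter of 5 CPM (0.010) and with upper quartile scaling (0.036).

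The ratio of 2 genes within a library does not depend on how libraries are scaled. Since gene length also enters, only the change in a ratio is read here, not its level. PSMB8/PSMB5 was 0.150, 0.154 and 0.147 in panobinostat libraries, against 0.332, 0.329 and 0.353 in vehicle libraries, which is 2.25-fold lower (log2 difference -1.17). PSMB10/PSMB7 was 0.0115, 0.00977 and 0.0114 with panobinostat, against 0.0541, 0.0428 and 0.0413 in vehicle, 4.22-fold lower. PSMB9/PSMB6 was 0.111, 0.124 and 0.121 with panobinostat, against 0.139, 0.129 and 0.141 in vehicle, 1.15-fold lower. In all 3 pairs the panobinostat libraries lay below the vehicle libraries, by a wide gap for PSMB8 and PSMB10 and a narrow one for PSMB9. An exact two-sided permutation test gave p = 0.1 for each, the smallest that 3 libraries against 3 allow (adjusted p = 0.15 over the 6 ratios computed), so this test cannot pass 0.05 with these libraries.

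**Figure D2:**
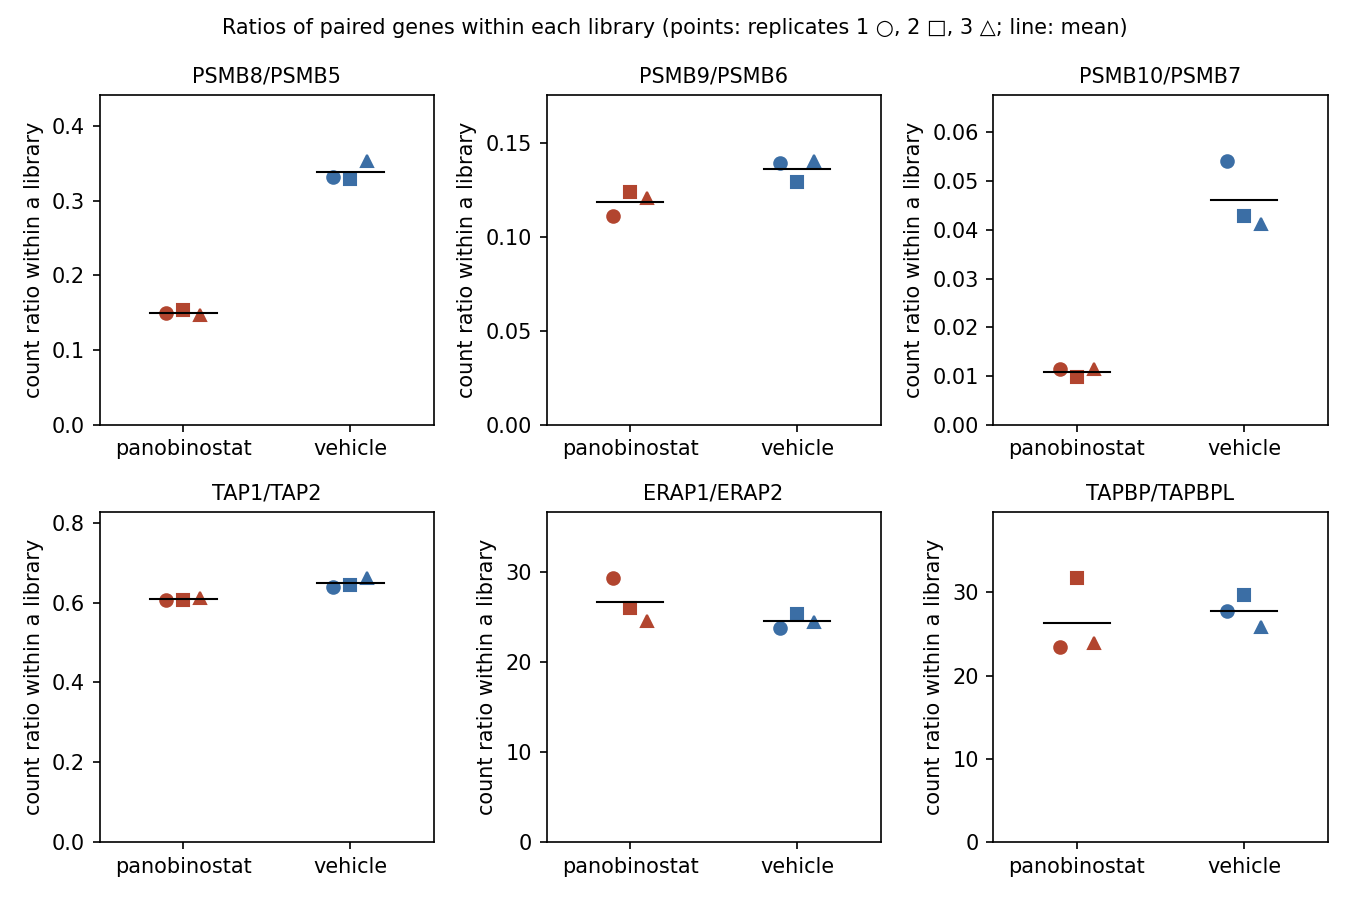
Count ratios of 6 gene pairs within each library, 1 panel a pair, with the 3 panobinostat libraries left of the 3 vehicle libraries, marker shapes for replicates and a line for the mean. PSMB8/PSMB5 averages 0.150 with panobinostat and 0.338 in vehicle and PSMB10/PSMB7 0.0109 and 0.0461, whereas TAPBP/TAPBPL overlaps between the groups.

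The peptide pump and its bridge to the heavy chain fell in 3 of 3 cases. TAP1 (chr6:32845209-32853978) had 19.5, 18.7 and 21.0 CPM in panobinostat libraries, against 33.7, 33.0 and 31.3 CPM in vehicle libraries. TAP2 (chr6:32821833-32838780) had 32.2, 30.8 and 34.3 CPM with panobinostat, against 52.8, 51.1 and 47.2 CPM in vehicle. Both chains of the pump were lower in every panobinostat library, with log2 fold changes of -0.73 ± 0.06 for TAP1 and -0.64 ± 0.06 for TAP2 (edgeR adjusted p = 6.69e-09 and 1.74e-08). The TAP1/TAP2 ratio was 0.608, 0.606 and 0.612 with panobinostat, against 0.639, 0.645 and 0.662 in vehicle, a log2 difference of -0.092 with no overlap between the groups (exact permutation p = 0.1, adjusted p = 0.15).

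Tapasin moved farther than the pump. TAPBP (chr6:33299694-33314387) had 25.6, 27.3 and 26.3 CPM in panobinostat libraries, against 80.5, 79.4 and 72.6 CPM in vehicle libraries. The groups were widely separated, and the log2 fold change was -1.55 ± 0.05 (edgeR adjusted p = 3.86e-14). TAPBPL, or TAPBPR, a relative of tapasin that edits peptides away from the pump, fell 2.78-fold at a much lower count level, to 1.003 ± 0.134 CPM with panobinostat, against 2.79 ± 0.113 CPM in vehicle (SD, n = 3 each; edgeR adjusted p = 1.28e-07). The TAPBP/TAPBPL ratio ran from 23.4 to 31.7 with panobinostat and from 25.8 to 29.6 in vehicle, ranges that overlapped (exact permutation p = 0.6, adjusted p = 0.6).

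The trimming enzymes of the ER fell together. ERAP1 (chr5:96760810-96808100), which trims long precursors to the length that fits the groove, had 45.8, 45.2 and 45.2 CPM in panobinostat libraries, against 124.8, 128.1 and 135.6 CPM in vehicle libraries. Its panobinostat libraries were nearly identical, and its log2 fold change was -1.51 ± 0.04 (edgeR adjusted p = 4.59e-15). ERAP2 (chr5:96875939-96919716), a related aminopeptidase with other residue preferences, had 1.55, 1.72 and 1.83 CPM with panobinostat, against 5.24, 5.04 and 5.52 CPM in vehicle, a log2 fold change of -1.64 ± 0.12 (edgeR adjusted p = 1.03e-09). ERAP1/ERAP2 was 29.4, 26.0 and 24.6 with panobinostat and 23.8, 25.3 and 24.5 in vehicle. These ranges overlapped (exact permutation p = 0.2, adjusted p = 0.24).

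B2M and NLRC5 had the smallest changes of the 10 genes. B2M (chr15:44711487-44718877), the light chain of every class I molecule, had 460, 468 and 445 CPM in panobinostat libraries, against 484, 486 and 533 CPM in vehicle libraries. The panobinostat libraries were all lower, by a small margin, with a log2 fold change of -0.13 ± 0.04 (edgeR adjusted p = 0.00685), a call that did not hold with the 5 CPM filter (-0.0367) or upper quartile scaling (-0.011). NLRC5 (chr16:56989485-57083531), the transactivator of class I genes, had 8.18, 9.33 and 8.63 CPM with panobinostat, against 8.62, 8.67 and 7.23 CPM in vehicle. Its ranges overlapped, and the log2 difference of 0.094 ± 0.091 did not pass (edgeR adjusted p = 0.342). It was called higher with upper quartile scaling (0.21) and stood at -0.0054 without vehicle replicate 3.

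**Figure D3:**
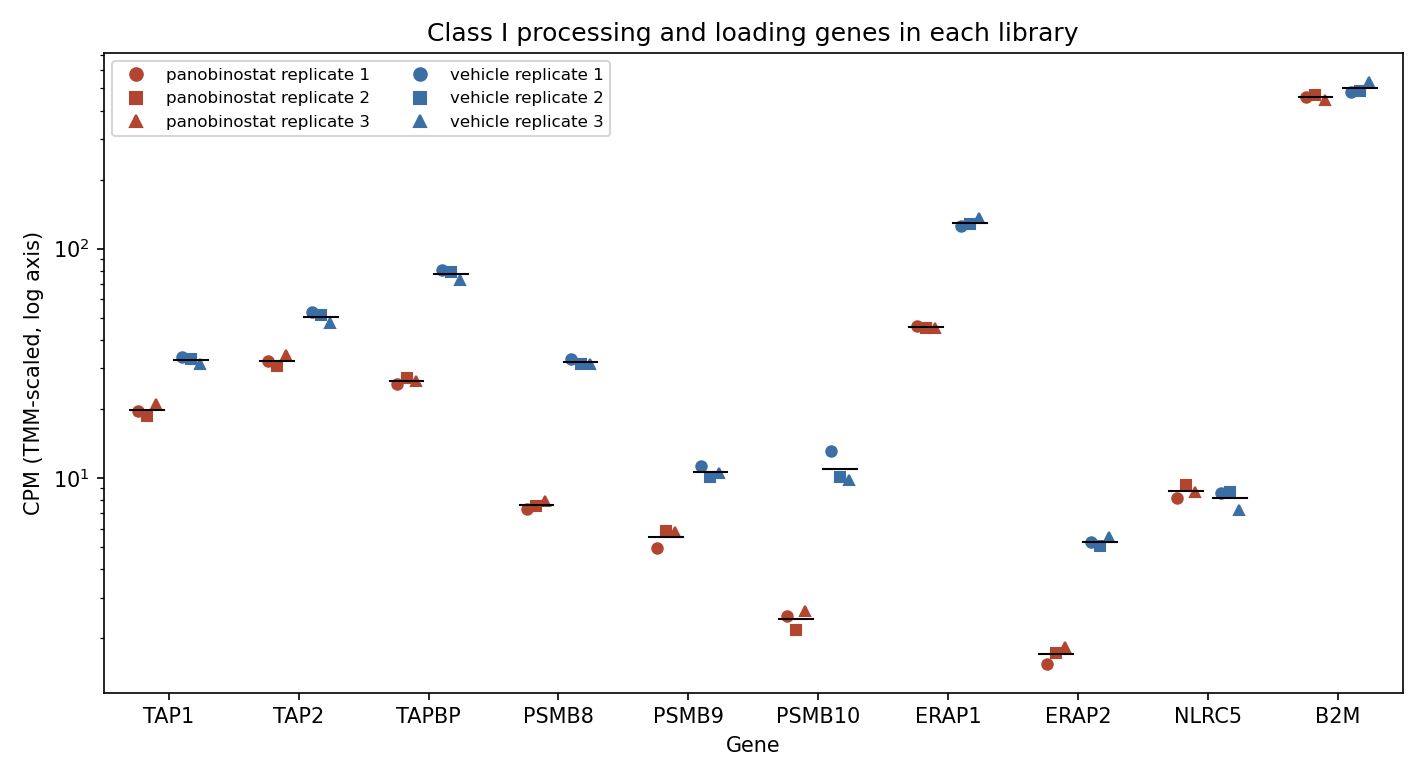
CPM of the 10 genes in each library on a log axis, panobinostat libraries left of vehicle libraries for each gene, with marker shapes for replicates and a line for the mean. The groups are separate for 9 genes and overlap for NLRC5, where 8.18 to 9.33 CPM with panobinostat stands beside 7.23 to 8.67 CPM in vehicle.

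Levels can be compared between genes only per length, here as CPM per kilobase of merged exons in GENCODE 29. B2M was far above the rest, at 192 ± 4.94 CPM per kilobase with panobinostat and 211 ± 11.5 in vehicle (SD, n = 3 each). In vehicle it was followed by PSMB8 (20.6 ± 0.661), TAPBP (18.5 ± 1.02) and ERAP1 (17.5 ± 0.741), then PSMB9, TAP1, PSMB10 and TAP2 between 11.5 and 8.16, and NLRC5 (1.20 ± 0.120) and ERAP2 (0.895 ± 0.0407) came last. With panobinostat TAP1 (6.67 ± 0.393), TAPBP, ERAP1, PSMB9, TAP2 and PSMB8 (4.89 ± 0.200) formed a run in which each range overlapped that of its neighbour, so that PSMB8 stood at place 7 with panobinostat and place 2 in vehicle. PSMB10 (1.99 ± 0.198), NLRC5 (1.28 ± 0.0848) and ERAP2 (0.288 ± 0.0239) lay below that run, each with a range that did not meet its neighbour's. In vehicle, neighbours with overlapping ranges were TAPBP and ERAP1, PSMB9 and TAP1, TAP1 and PSMB10, and PSMB10 and TAP2. Since neither labels nor header name the annotation used for counting, these lengths are approximate.

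Some of these genes lie over others, and whether counting used strand is not stated in the file header or labels. PSMB8 is overlapped on the opposite strand by PSMB8-AS1, listed under its older symbol TAPSAR1, with 20 to 33 counts in panobinostat libraries and 31 to 70 in vehicle libraries. Its log2 fold change was -1.01 ± 0.26 (edgeR adjusted p = 0.00219). PSMB8 itself had 256 to 274 counts with panobinostat and 1078 to 1281 in vehicle. With the strand setting unknown, the PSMB8-AS1 count does not measure how many reads of the overlap went to either gene. The 3′ end of ERAP1 lies opposite the 3′ end of CAST, the calpain inhibitor, which rose to 445 ± 12.4 CPM with panobinostat, against 297 ± 10.8 CPM in vehicle (log2 fold change 0.58 ± 0.04; edgeR adjusted p = 1.96e-10). The annotated span of PSMB9 also overlaps those of TAP1 and PSMB8 on the opposite strand, and PSMB8-AS1 overlaps TAP1 and PSMB9 too, so reads shared by these pairs cannot be separated.

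The heavy chains that B2M and peptide complete went both ways. Of 5 described, 1 rose, 2 fell and 2 did not pass, with a median log2 fold change of -0.0080. Among all tested genes 41.8% rose and 41.0% fell. HLA-F, a nonclassical heavy chain of low level, rose 1.43-fold to 5.76 ± 0.814 CPM, against 4.01 ± 0.408 CPM in vehicle (SD, n = 3 each; edgeR adjusted p = 0.000678).

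Among the remaining heavy chains, HLA-E, which is recognised by NKG2A on NK cells, fell furthest. It had 73.6, 72.9 and 74.2 CPM with panobinostat, against 125.2, 129.1 and 123.9 CPM in vehicle, a log2 fold change of -0.78 ± 0.04 (edgeR adjusted p = 7.51e-12). HLA-C also fell, with a log2 fold change of -0.45 ± 0.05 (edgeR adjusted p = 3.80e-07). HLA-B had a log2 difference of -0.0080 ± 0.0397 (edgeR adjusted p = 0.859), whose sign turned under 7 alternatives and which upper quartile scaling put past the threshold as a rise (0.11), and HLA-G one of 0.086 ± 0.128 (edgeR adjusted p = 0.541). Sequences of HLA genes are close to one another, which makes each of these counts uncertain.

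Partners of peptide loading in the ER were mixed, with 3 of 6 lower and 2 higher, near the 41.0% and 41.8% of all tested genes. PDIA3 (ERp57), the thiol oxidoreductase bound to tapasin, fell 1.94-fold, to 235 ± 8.03 CPM with panobinostat, against 455 ± 14.7 CPM in vehicle (edgeR adjusted p = 2.89e-13). CANX, the chaperone of new heavy chains, fell 1.23-fold. UGGT1, which returns misfolded glycoproteins to chaperones and works with TAPBPL, rose 1.43-fold, and BCAP31, an export factor of the ER, 1.17-fold.

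Proteasome activators and assembly factors had 3 of 7 lower and 1 higher, where 41.0% of all tested genes were lower and 41.8% higher. PSME2, the beta subunit of the interferon-inducible PA28 cap, fell 1.42-fold, PSME3, the nuclear PA28 gamma cap, fell 1.37-fold and PSMG1, an assembly chaperone of the core ring, 2.09-fold. PSME4, the PA200 cap, rose 1.24-fold. The count of rises was 4 of 7 with the 5 CPM filter and with upper quartile scaling.

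Other peptidases that make or destroy class I peptides rose in 4 of 8 cases and fell in 3. These counts were near the shares over all tested genes, 41.8% higher and 41.0% lower. The cytosolic peptidase TPP2, which shortens long proteasome products, rose 1.85-fold, to 247 ± 1.66 CPM with panobinostat, against 133 ± 4.12 CPM in vehicle (SD, n = 3 each; edgeR adjusted p = 5.01e-13). NRDC (nardilysin, listed as NRD1) rose 1.56-fold and NPEPPS, an aminopeptidase, 1.42-fold. LAP3, an interferon-inducible aminopeptidase, fell 1.69-fold, THOP1, which degrades cytosolic peptides, 1.65-fold, and BLMH 1.23-fold.

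**Figure D4:**
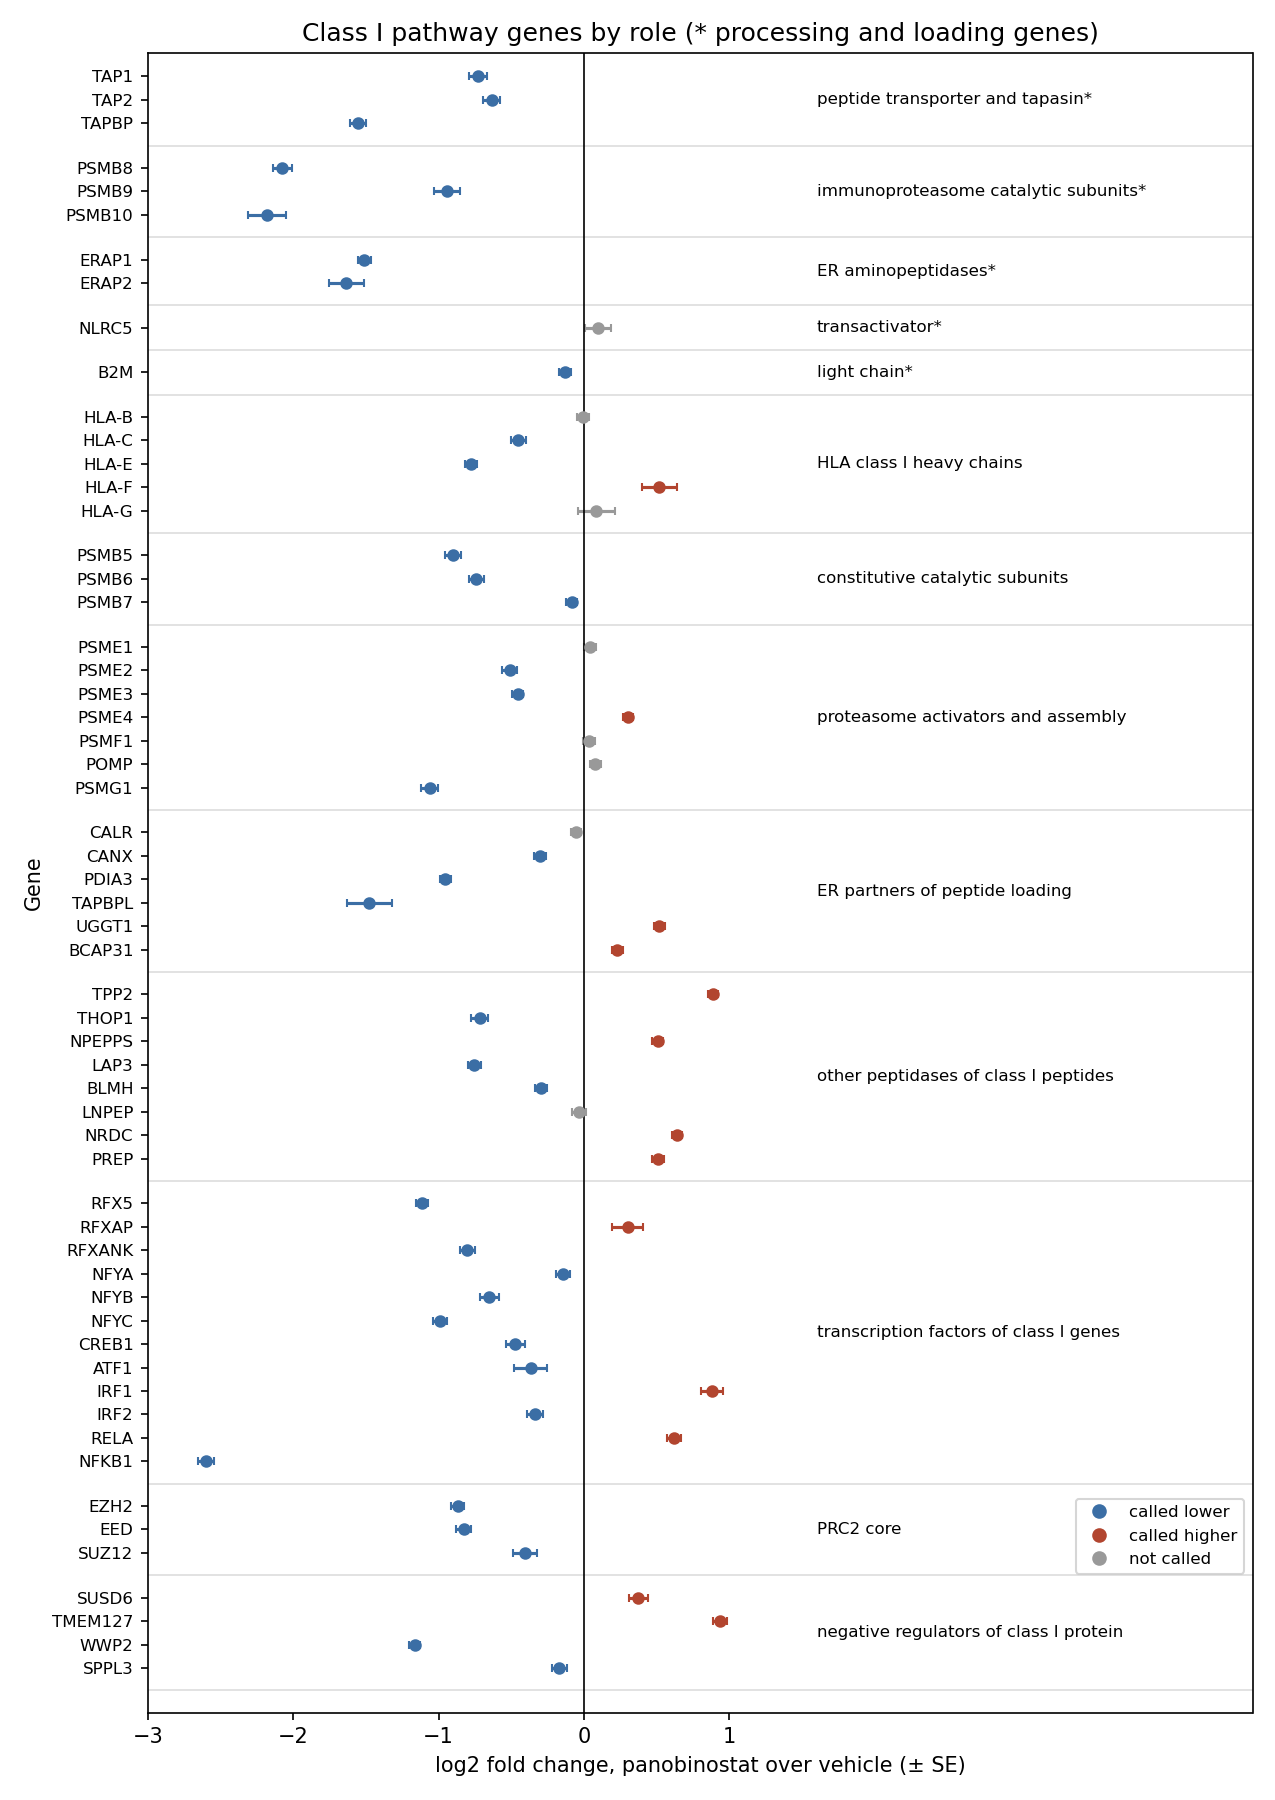
Log2 fold changes of panobinostat over vehicle from edgeR for class I pathway genes, 1 row a gene, grouped by role. Colours give the call at an adjusted p under 0.05, and bars are ± SE computed from the F statistic. Of the 10 processing and loading genes marked by an asterisk 9 are called lower, while 1 of 5 heavy chains is higher and 2 lower. SPPL3 is drawn among the negative regulators, though it is not known to hold class I down.

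Transcription factors that act on class I promoters fell in 9 of 12 cases and rose in 3, with a median log2 fold change of -0.42. Over all tested genes 41.0% were lower and 41.8% higher. NFKB1, the p50 subunit of NF-kB, had 21.6, 19.5 and 22.7 CPM in panobinostat libraries, against 130.9, 130.8 and 125.4 CPM in vehicle libraries, and fell 6.07-fold (edgeR adjusted p = 6.34e-17). RFX5, which binds the X box and forms part of the platform that NLRC5 uses, fell 2.17-fold to 74.6 ± 2.27 CPM, against 162 ± 2.64 CPM in vehicle (edgeR adjusted p = 6.29e-14), and NFYC, a subunit of the CCAAT-binding factor, fell 1.99-fold.

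Of the 12 factors described, IRF1, RELA and RFXAP rose. IRF1, which binds the interferon response element, had 17.9, 16.5 and 15.7 CPM with panobinostat, against 8.75, 9.30 and 9.23 CPM in vehicle, and rose 1.84-fold (edgeR adjusted p = 6.16e-09). RELA, the p65 subunit of NF-kB, rose 1.54-fold. RFXAP, a partner of RFX5 on the X box, rose 1.23-fold, to 11.3 ± 1.51 CPM with panobinostat, against 9.20 ± 1.17 CPM in vehicle (SD, n = 3 each; edgeR adjusted p = 0.0161), with overlapping ranges. That call was lost without vehicle replicate 1 (log2 fold change 0.28) or 2 (0.20) and without panobinostat replicate 1 (0.26) or 2 (0.22). IRF1 was higher in every panobinostat library than in any vehicle library. TAP1, TAP2, TAPBP, PSMB8, PSMB10, ERAP1, ERAP2 and B2M, which hold the interferon response element in a window, were lower in every panobinostat library. So was PSMB9, whose window holds no match. Ranges were apart for 83.4% of all tested genes, and apart and lower for 41.5%. A link between IRF1 and these genes was not tested.

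Of the genes known to hold the class I pathway down, the 3 core subunits of the PRC2 methyltransferase fell in 3 of 3 cases. PRC2 is a silencer of class I genes in several tumours, and 41.0% of all tested genes were lower. EZH2, the catalytic subunit, fell 1.82-fold, to 41.9 ± 0.765 CPM with panobinostat, against 76.4 ± 1.01 CPM in vehicle (SD, n = 3 each; edgeR adjusted p = 7.77e-12), EED 1.77-fold and SUZ12 1.33-fold. Listed regulators of the class I protein went both ways, with 2 of 4 higher and 2 lower. The shares over all tested genes were 41.8% higher and 41.0% lower. TMEM127 rose 1.91-fold and SUSD6 (listed as KIAA0247) 1.30-fold, while the ubiquitin ligase WWP2, which acts with them, fell 2.24-fold. The protease SPPL3, on the same list but not known to hold class I down, fell 1.12-fold. Its call did not hold with the 5 CPM filter (-0.0750) or upper quartile scaling (-0.049).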

How the data were processed

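RNA of 6 A375 libraries was analysed from the deposited count table, whole-number counts per gene symbol with no normalization. Per the name of the deposited file the aligner was STAR. Neither labels nor header name a version, build, annotation, kit or strand setting. Columns were matched to samples by title, and the labelled dose set the groups. Of 25435 lines, 92 were spike-in controls with 0 counts and were left out. With no spike-in counts, CPM are relative to the scaled library total and give no amount of RNA per cell. Replicates differed by more than sampling noise (chi-square per degree of freedom 1.90 to 9.14).

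Genes were kept with filterByExpr, scaled by TMM and tested on group alone with edgeR 4.0.16 (glmQLFit with robust = TRUE, glmQLFTest) in R 4.3.3, over all genes. The steps were tested on simulated counts. The SE of a log2 fold change was its absolute value divided by the square root of the F statistic of the edgeR test. Ratios used a pseudocount of 0.5 counts. The alternatives tried were scaling by RLE, upper quartile or library size, no low-count filter, a filter of 5 CPM in 3 libraries, DESeq2 1.42.0, limma 3.58.1 (voom), omission of each library, a replicate block, thinning to the smallest total, a test against a 2-fold change, and for ratios a pseudocount of 5. Named genes were the 10 genes, the heavy chains, the constitutive and PRC2 subunits, and up to 3 called genes per direction of each other list. Some genes are not reported here, and list counts leave them out. The genes and lists were chosen with earlier results of these data known. Start-site windows are RefSeq's and gene positions GENCODE 29's, both on GRCh38. Exonic overlap of windows was not examined.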

Additional observations from a re-analysis of the deposited data

How the results depend on the processing

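The count of 9 lower genes was 8 to 9 over the alternatives. The log2 fold changes of TAP1, TAP2, TAPBP, PSMB8, PSMB9, PSMB10, ERAP1 and ERAP2 kept their direction and their call under all 15 alternatives. B2M lost its call with upper quartile scaling (-0.011) and the 5 CPM filter (-0.0367), and NLRC5 passed as higher with upper quartile scaling (0.21, which makes 1 gene higher) and stood between -0.0054 and 0.14 when 1 library was left out. Upper quartile scaling moved the median of all tested genes to 0.13 and no low-count filter to 0.12, from 0.0085. HLA-B was 0.0098 with RLE scaling, 0.11 with upper quartile, 0.0076 with library size, 0.086 with the 5 CPM filter and 0.0098 with DESeq2, and -0.054 to 0.011 with 1 library left out. Rises among heavy chains numbered 2 with upper quartile scaling. PSMB7 was 0.010 with the 5 CPM filter and 0.036 with upper quartile scaling. Rises among proteasome activators and assembly factors numbered 2 with RLE scaling, library-size scaling and DESeq2, 4 with upper quartile scaling and the 5 CPM filter, and 1 to 2 with 1 library left out. Falls among the listed regulators of the class I protein numbered 1 with the 5 CPM filter and upper quartile scaling. The cause of these changes was not tested.

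The labels do not say that the title numbers mark pairs, and deviations of same-numbered libraries from their group means showed no shared direction (r = -0.141 to -0.0576). With a replicate block 9 genes were lower and the B2M log2 fold change was -0.13, and of the calls named only that of PSMB7 was lost (-0.084). Ratio differences kept their sign, PSMB8/PSMB5 at -1.19 to -1.14 and PSMB10/PSMB7 at -2.15 to -1.95. At this depth 3 counts are 0.0774 to 0.0928 CPM.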
